A study of Mus musculus with 122 samples.

Results

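The 39 genes described here are a given list of DNA replication and cell cycle genes, and they were read by symbol from a table of 52459 genes that holds 38 RNA-seq libraries of mouse embryonic stem cells. All 39 had a mean normalised count of at least 10 in each of the 4 cell lines, so every member entered every test. The cells are E14Tg2a embryonic stem cells, XY and of the 129/Ola strain. In all of them, controls included, both alleles of Ctcf carry an AID-eGFP tag and the plant protein Tir1 is expressed from Rosa26, so that the auxin indole-3-acetic acid (IAA, 500 uM) leads to degradation of endogenous CTCF. Each of the 4 lines is a single clone with a different FLAG and mRuby2 tagged transgene at the Tigre locus, switched on by doxycycline (Dox, 1 ug/ml). The transgenes encode CTCF, its germline paralogue CTCFL, and the chimeras LCL (zinc fingers of CTCF between the ends of CTCFL) and CLC (zinc fingers of CTCFL between the ends of CTCF). Each line was left untreated (U), or was given IAA alone (I), Dox alone (D) or both (ID); the sample labels give 24 h of treatment and the treatment protocol gives 2 days. The number of libraries for U, I, D and ID was 2, 3, 3 and 3 in the CTCF line, 3, 3, 3 and 2 in the CTCFL line, and 2 each in the LCL and CLC lines. Nothing in the labels says that libraries of a group came from separate cultures, so the p-values measure the spread between these libraries, which may be technical.

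DNA replication begins when origins are licensed in G1: CDC6 and CDT1 load the MCM2-7 helicase onto DNA, and CDC45, the GINS complex and MCM10 later turn it into a working helicase. The sliding clamp PCNA, placed by the RFC clamp loader, then holds polymerases such as POLE on the template. Cyclins D, E and A with their kinases drive entry into and passage through S phase, cyclin B with CDK1, the Aurora kinases and PLK1 drive mitosis under the watch of the BUB1 checkpoint, and inhibitors such as CDKN1B, CDKN2A and CDKN2B hold CDKs back. Embryonic stem cells are known for a short G1 and high levels of many replication genes. In a bulk library, fewer cells of a given cell cycle phase and less RNA per cell cannot be told apart.

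The promoters of Mcm3, Mcm6, Mki67 and Cdkn2b are shown because the results below turn on these genes, a pair of helicase genes, the proliferation marker and a CDK inhibitor. Each run covers 250 bases before to 50 bases after the start site, on the coding strand, from RefSeq on GRCm38.p6. Capitals mark matches on either strand to E2F letters (TTTCCCGC, TTTGGCGC, TTTCGCGC or TTTGCCGC), CHR letters (TTTGAA or TTCGAA) and the CCAAT box; overlapping matches are merged.
Mcm3, chr1:20820263-20820562, minus strand: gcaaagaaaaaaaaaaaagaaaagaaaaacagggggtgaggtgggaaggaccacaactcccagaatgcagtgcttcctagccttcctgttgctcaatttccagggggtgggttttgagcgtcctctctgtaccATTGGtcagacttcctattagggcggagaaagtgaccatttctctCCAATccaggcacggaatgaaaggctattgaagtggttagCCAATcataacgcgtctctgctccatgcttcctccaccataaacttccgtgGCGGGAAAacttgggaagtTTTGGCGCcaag
Mcm6, chr1:128359656-128359955, minus strand: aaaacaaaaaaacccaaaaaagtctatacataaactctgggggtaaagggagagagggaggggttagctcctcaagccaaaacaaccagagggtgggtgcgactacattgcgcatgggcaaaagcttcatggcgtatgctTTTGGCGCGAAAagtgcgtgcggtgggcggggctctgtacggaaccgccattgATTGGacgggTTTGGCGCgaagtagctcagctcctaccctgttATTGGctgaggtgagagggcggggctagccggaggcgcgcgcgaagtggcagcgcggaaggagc
Mki67, chr7:135716330-135716629, minus strand: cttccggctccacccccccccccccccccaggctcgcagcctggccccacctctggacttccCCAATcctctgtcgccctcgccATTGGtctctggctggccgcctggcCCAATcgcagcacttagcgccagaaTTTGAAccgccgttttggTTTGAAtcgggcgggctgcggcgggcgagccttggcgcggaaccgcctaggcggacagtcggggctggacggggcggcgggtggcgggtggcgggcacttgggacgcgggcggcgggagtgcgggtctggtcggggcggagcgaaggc
Cdkn2b, chr4:89310983-89311282, minus strand: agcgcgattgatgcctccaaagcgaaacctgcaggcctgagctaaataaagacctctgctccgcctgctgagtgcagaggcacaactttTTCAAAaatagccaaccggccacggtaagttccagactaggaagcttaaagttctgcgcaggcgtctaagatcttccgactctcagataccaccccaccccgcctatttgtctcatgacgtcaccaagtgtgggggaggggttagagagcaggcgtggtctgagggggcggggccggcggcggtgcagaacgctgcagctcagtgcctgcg

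The promoter table held 28 of the 39 members. E2F letters occurred in the promoters of 10 of those 28 (35.7%), against 2.6% of the 27025 genes in the table, and in 4 of the 5 MCM2-7 genes present. CHR letters, known from genes that peak in G2 and mitosis, occurred in 13 of 28 (46.4%, against 21.7% of all genes) and in 5 of the 6 mitotic genes present. A CCAAT box occurred in 22 of 28 (78.6%, against 41.1%). The promoter of Cdkn2b held 1 CHR match and no E2F or CCAAT match. A match is a description of these letters and not a bound site.

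The table holds counts that the authors divided by a size factor per library, called normalised counts here. Reads per library, recovered from the steps between values in 36 of the 38 libraries, ran from 6847072 in replicate 3 of CTCFL D to 49716771, with a median of 26013021. Ctcfl, the check of the transgenes with CTCFL parts, went from 208 ± 16.5 (SD, n = 3) in untreated cells to 8244 ± 1005 (SD, n = 3) with Dox in the CTCFL line, and from 42 ± 0.955 to 1810 ± 26.8 (SD, n = 2 each) in the CLC line. In the LCL line, whose transgene holds both ends of CTCFL, it was 31.8 ± 6.59 in U, 400 ± 22.8 in D and 1172 ± 74.2 in ID (SD, n = 2 each). In the CTCF line, Ctcf was 4701 ± 15.1 (SD, n = 2) in untreated libraries and 3748 ± 172 (SD, n = 3) in those labelled D. Its RNA thus does not show the Dox treatment, and for RNA the D and ID libraries of that line are groups by label. The paper reports FLAG-tagged CTCF protein in D and ID cells by western blot. The FLAG ChIP-seq described below held 37154 sites in CTCF D and 30317 in CTCF ID. The 9 markers of naive pluripotent cells were all at a mean of 10 or more in every group. The first principal component (45.7% of the variance) put all CTCF and CTCFL libraries on one side and all LCL and CLC libraries on the other, and the summed level of 6 primitive endoderm markers was 3941 to 7069 in the former and 593 to 1108 in the latter. The headers of all LCL and CLC columns also carry the letters 2i, a usual name for medium with GSK3 and MEK inhibitors, and no CTCF or CTCFL header does, while the growth protocol lists both inhibitors for every sample. Whether that split comes from the clones, the transgenes, the medium or separate library preparation cannot be told apart, so each treatment was compared within its own line.

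Already without treatment, most replication genes were higher in the LCL and CLC lines than in the CTCF and CTCFL lines. Of the 39 members, 27 were higher in every untreated LCL and CLC library than in every untreated CTCF and CTCFL library, which held for 23.1% of all 16480 genes; 2 members, Rfc4 and Ccnd2, were lower in every such library (27.4% of all genes), and 10 overlapped. All 6 MCM2-7 genes were among the 27. Mcm2 averaged 8270 and 8029 normalised counts in the CTCF and CTCFL lines and 21504 and 24663 in the LCL and CLC lines. The G1 cyclin gene Ccnd2 lay the other way, with group means of 352 and 552 against 50.6 and 39.5. Scaled per kilobase of exon, the level order of the members in the untreated CTCF line ran from Top2a, the S and G2 phase topoisomerase, at 4056 counts per kb, and Mcm3 at 3046 counts per kb, to Ccnd2 at 37.4 and Cdkn2b at 28.8 counts per kb. Top2a and Cdkn2b also marked both ends of that scale in the CTCFL line, at 3659 and 54.6 counts per kb.

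IAA alone was compared with no treatment in each line, which asks what the genes did when endogenous CTCF was degraded without a transgene. Calls are members past a Benjamini-Hochberg adjusted p of 0.01 in limma, on log2(normalised count + 1), with the adjustment over all genes tested. In the CLC line, 18 members fell and 2 rose, where 14.5% of all genes fell and 12.7% rose, and the median log2 fold change of the members was -0.45 against 0 for all genes. In the LCL line 10 fell and 3 rose (14.3% and 14.1% of all genes), in the CTCF line 8 fell and 5 rose (16.1% and 14.8%), and in the CTCFL line 4 fell and 3 rose (16% and 14.3%), with member medians of -0.09, -0.06 and 0.04. With TMM factors the CTCF line had 15 lower and 3 higher, and the CTCFL line 8 lower and 3 higher. The count depended on single libraries. Without replicate 1 or 2 of CLC U, 9 and 8 members were called in the CLC line. Without replicate 1 or 2 of CTCF U, 7 and 7 were called in the CTCF line. Without replicate 1 of LCL I, 8 were called in the LCL line. The summed naive pluripotency markers were also lower with IAA in each line, for example 177537 to 188316 in CLC I against 254272 to 255692 in CLC U, and the summed level of 5 markers of two-cell-like cells was higher, 509 to 660 in CTCF I against 129 to 201 in CTCF U; in LCL U these were all at 0, and in CLC I they summed to 14.2 to 26.8. The part of these markers in the result was not tested.

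**Figure D1:**
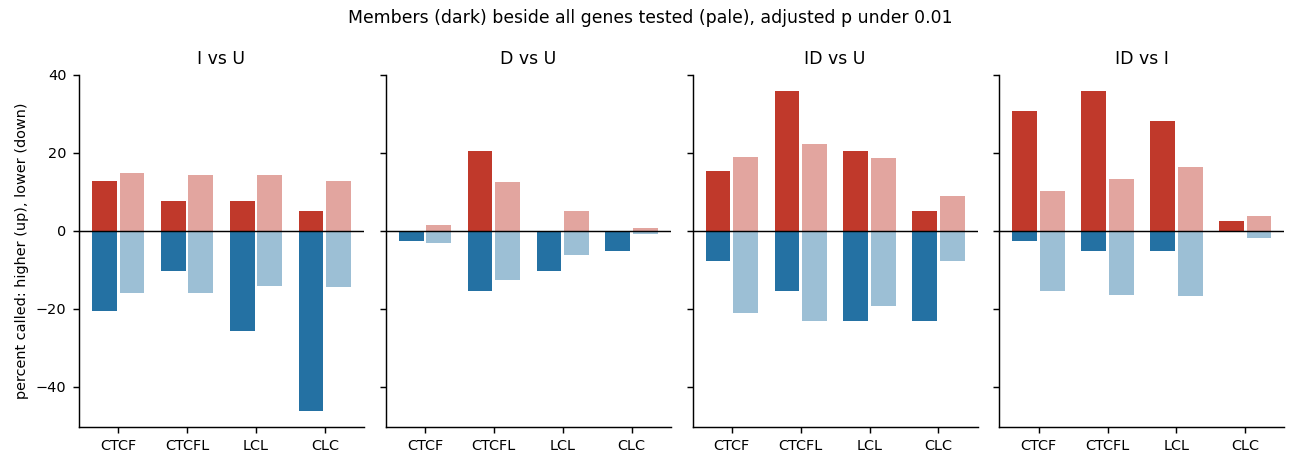
Percent of the 39 members (dark bars) and of all genes tested (pale bars) that passed an adjusted p of 0.01, higher drawn upward and lower drawn downward, in each line (x axis) and comparison (panels). The lower bar of the members stands out in CLC I vs U, where 18 of 39 fell, and the higher bar in ID vs I of the other 3 lines.

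The helicase genes were the role group with the most members that fell in the CLC line. With IAA, 5 of the 6 MCM2-7 genes fell, where 14.5% of all genes did. The 6 log2 fold changes ran from -0.77 to -0.41 with a median of -0.65. Mcm4 fell by 0.77 (SE 0.11, adjusted p = 0.000834), Mcm6 by 0.74 (SE 0.07, adjusted p = 0.000124) and Mcm3 by 0.69 (SE 0.08, adjusted p = 0.000248) on the log2 scale. Mcm3 was the member of this group that passed the test in every line, with log2 fold changes of -0.37 in the CTCF, -0.28 in the CTCFL, -0.33 in the LCL and -0.69 in the CLC line. It also fell in ID against U in every line, with log2 fold changes of -0.41, -0.29, -0.49 and -0.53 in the same order of lines. Fewer MCM2-7 genes were called with IAA alone elsewhere: 2 fell in the CTCF line, 1 in the CTCFL line and 3 in the LCL line, and none rose. Of all genes, 16.1%, 16% and 14.3% fell in these lines.

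**Figure D2:**
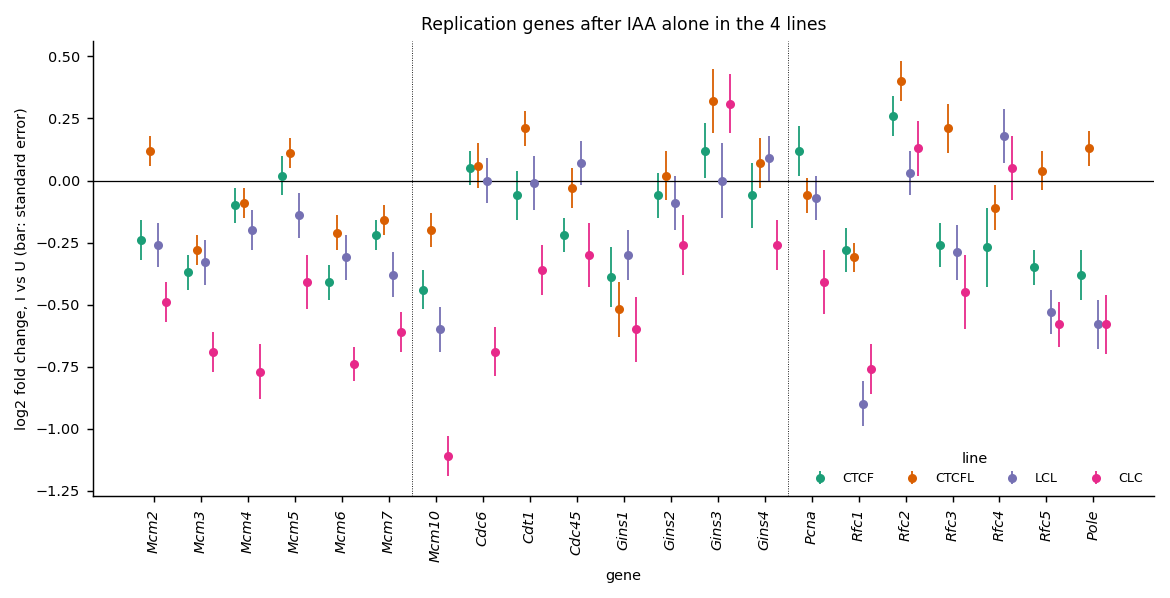
Log2 fold change of the MCM2-7, licensing, clamp, clamp loader and polymerase genes (x axis) after IAA alone against untreated cells (y axis), with the standard error as bar and a colour for each line. The points of the CLC line lie lowest for most helicase genes, near -0.41 to -0.77, and at -1.11 for Mcm10.

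Mcm10, which joins the helicase as it starts to unwind, changed most among the licensing and activation genes. Its normalised counts were 3553 and 3794 in CTCF U, 2936, 2596 and 2596 in CTCF I, 2913, 3232 and 3089 in CTCF D, and 3649, 3446 and 3643 in CTCF ID. They were 3058, 3413 and 3539 in CTCFL U, 2936, 2898 and 2850 in I, 3390, 3368 and 3465 in D, and 3335 and 3461 in ID. In both lines every I library lay below every U library, and ID lay close to U. Between I and U, 59.5% of all genes in the CTCF and 51.8% in the CTCFL line did not overlap. The counts were 5863 and 5586 in LCL U, 3737 and 3805 in I, 4724 and 5582 in D, and 5055 and 4672 in ID. They were 6098 and 6225 in CLC U, 2911 and 2797 in I, 5200 and 5336 in D, and 3453 and 3631 in ID. The I libraries were the lowest in both lines, where 70.4% and 74.4% of all genes did not overlap between I and U. For Mcm10, ID overlapped D in the LCL line and lay between I and D in the CLC line. The log2 fold change with IAA was -1.11 (SE 0.08, adjusted p = 2.38e-05) in the CLC, -0.60 in the LCL and -0.44 in the CTCF line, and these passed the test. Cdc6, the loader of the helicase, fell by 0.69 (SE 0.10, adjusted p = 0.000792) in the CLC line, and Gins1, a GINS subunit, fell by 0.52 (SE 0.11, adjusted p = 0.000426) in the CTCFL line.

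Among the clamp, clamp loader and polymerase genes, Rfc1, the large subunit of the clamp loader, fell with IAA in 3 lines. Its log2 fold change was -0.90 (SE 0.09, adjusted p = 2.32e-07) in the LCL line, -0.76 (SE 0.10, adjusted p = 0.000603) in the CLC line and -0.31 (SE 0.06, adjusted p = 0.000313) in the CTCFL line. Rfc2, a small subunit of the same complex, rose in the CTCFL line by 0.40 (SE 0.08, adjusted p = 0.000314). Pole, the leading strand polymerase, fell in the LCL line by 0.58 (SE 0.10, adjusted p = 9.01e-05) and in the CTCF line by 0.38 (SE 0.10, adjusted p = 0.00733). Pole has 11160 bases of exon, and longer genes were lower with IAA as a whole: the 10% of genes with the longest exons had a median log2 fold change of -0.28 in the CTCF line. A trend over length was not particular to IAA. With Dox alone that median was -0.22 in the CTCF, -0.13 in the LCL and -0.11 in the CLC line, but 0.03 in the CTCFL line. With the length trend removed, an alternative chosen after seeing the data, the value for Pole in CTCF I against U was -0.12 (adjusted p = 0.202). Its call was also lost without either CTCF U library, replicate 2 or 3 of CTCF I, replicate 2 of CTCF D or any single CTCF ID library (adjusted p up to 0.0705). Pcna passed the test in none of the 16 comparisons.

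The cyclins did not move as a group. Ccnd2, a D cyclin gene, had normalised counts of 343 and 360 in CTCF U, 500, 419 and 417 in I, 294, 345 and 305 in D, and 512, 533 and 587 in ID. They were 505, 442 and 709 in CTCFL U, 1062, 928 and 720 in I, 403, 483 and 446 in D, and 650 and 738 in ID. The I libraries lay above the U libraries in both lines, where 59.5% and 51.8% of all genes did not overlap between I and U. The counts were 52.4 and 48.8 in LCL U, 194 and 90.6 in I, 94.7 and 122 in D, and 83.6 and 107 in ID. They were 42.2 and 36.8 in CLC U, 235 and 196 in I, 76.5 and 86.3 in D, and 113 and 115 in ID. All treated libraries of these 2 lines lay above their untreated ones, and CLC I lay above CLC D and ID. Between a treatment and U, 63.7% to 72.6% of all genes in the LCL and 70.3% to 75.2% in the CLC line did not overlap. The log2 fold change of Ccnd2 with IAA was 2.42 (SE 0.20, adjusted p = 4.74e-05) in the CLC, 1.37 (SE 0.31, adjusted p = 0.00125) in the LCL and 0.72 (SE 0.15, adjusted p = 0.00069) in the CTCFL line. The LCL value was 0.83 (adjusted p = 0.0607) without replicate 1 of LCL I, and its adjusted p was 0.0105 without replicate 2 of LCL U.

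Ccnd1, another D cyclin gene, followed a different pattern. Its normalised counts were 1309 and 1414 in CTCF U, 1202, 1064 and 1168 in I, 1259, 1244 and 1214 in D, and 1382, 1413 and 1427 in ID. They were 998, 1048 and 939 in CTCFL U, 1260, 1277 and 1088 in I, 762, 803 and 835 in D, and 1409 and 1369 in ID. In the CTCFL line the D libraries were the lowest and the ID libraries the highest (46.7% and 72% of all genes did not overlap with U). The counts were 1087 and 1009 in LCL U, 588 and 666 in I, 691 and 708 in D, and 1001 and 1130 in ID. They were 508 and 533 in CLC U, 296 and 313 in I, 350 and 379 in D, and 187 and 209 in ID. Single treatments lay below U in both lines without overlap, as did 63.7% to 74.4% of all genes in either direction. The ID libraries overlapped U in the LCL line and lay below every other group in the CLC line. There 75.2% of all genes did not overlap between ID and U. With IAA the log2 fold change was -0.74 (SE 0.12, adjusted p = 3.23e-05) in the LCL and -0.77 (SE 0.12, adjusted p = 0.00145) in the CLC line, where the call was lost without replicate 1 or 2 of CLC U (adjusted p = 0.0166 and 0.0237). In ID against U it was -1.39 (SE 0.12, adjusted p = 0.00019) in the CLC line. Ccnd3, the remaining D cyclin gene, fell with IAA by 0.88 (SE 0.08, adjusted p = 9.11e-05) in the CLC, 0.62 (SE 0.07, adjusted p = 7.26e-07) in the CTCFL and 0.50 (SE 0.11, adjusted p = 0.00233) in the CTCF line. The CTCF value was -0.42 (adjusted p = 0.035) without replicate 1 of CTCF U and -0.34 (adjusted p = 0.0374) with the length trend removed. Ccne2, an E cyclin gene of the G1 to S transition, rose by 0.69 (SE 0.10, adjusted p = 9.99e-05) in the CTCF and 0.48 (SE 0.12, adjusted p = 0.00214) in the CTCFL line. The CTCFL value had an adjusted p of 0.0122 without replicate 1 of CTCFL U and 0.0153 with the length trend removed. It was 0.0114 with edgeR and 0.0177 in limma without a variance trend.

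Bub1, a kinase of the spindle checkpoint, was the mitotic gene with the largest change among those called after IAA. Its normalised counts were 4893 and 5055 in CTCF U, 4100, 3902 and 3718 in I, 4515, 4690 and 3979 in D, and 5283, 5070 and 5105 in ID. They were 4580, 4289 and 4457 in CTCFL U, 4162, 3853 and 3742 in I, 4757, 5147 and 5337 in D, and 5386 and 4786 in ID. In both lines every I library lay below every U library and every ID library. Between I and U, 59.5% and 51.8% of all genes did not overlap there. The counts were 4954 and 4303 in LCL U, 3250 and 3472 in I, 4082 and 3829 in D, and 4875 and 4272 in ID. They were 5148 and 4975 in CLC U, 2665 and 2074 in I, 3119 and 3746 in D, and 3065 and 3856 in ID. The I libraries were the lowest in both lines, and in the CLC line all treated libraries lay below the untreated ones. In that line 70.3% to 75.2% of all genes did not overlap between a treatment and U. The log2 fold change with IAA was -1.11 (SE 0.15, adjusted p = 0.000656) in the CLC, -0.46 in the LCL and -0.35 in the CTCF line. Cdk1, the mitotic CDK, rose with IAA in the CTCF line by 0.38 (SE 0.10, adjusted p = 0.0069). There 2 mitotic genes in all rose and 1 fell (14.8% and 16.1% of all genes).

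Mki67, the marker of cycling cells, fell in the LCL line under every treatment. Its normalised counts there were 11523 and 7616 in U, 4466 and 4335 in I, 3766 and 3089 in D, and 2792 and 3257 in ID. No treated library reached an untreated one, although the 2 untreated libraries lay far apart. Between a treatment and U, 63.7% to 72.6% of all genes in the LCL and 70.3% to 75.2% in the CLC line did not overlap. The log2 fold changes against U were -1.09 (SE 0.14, adjusted p = 2.68e-06) with IAA, -1.46 (SE 0.14, adjusted p = 5.98e-07) with Dox and -1.64 (SE 0.14, adjusted p = 8.46e-09) with both. Leaving out 1 LCL library at a time gave -1.39 to -0.79, -1.76 to -1.16 and -1.93 to -1.34. In limma without a variance trend the calls with IAA (adjusted p = 0.0165) and with Dox (adjusted p = 0.0258) were lost. The counts were 6073 and 6030 in CLC U, 4828 and 3912 in I, 3957 and 3977 in D, and 3311 and 4124 in ID. All treated libraries lay below the untreated ones there, and ID against U passed the test (log2 fold change -0.71, SE 0.13, adjusted p = 0.00398). That call was lost without either CLC U library, either CLC D library or replicate 1 of CLC ID (values of -0.72 to -0.55, adjusted p up to 0.0372), and with a replicate block (adjusted p = 0.0114). The counts were 9002 and 9683 in CTCF U, 11029, 8976 and 9003 in I, 7522, 8335 and 6900 in D, and 10390, 10349 and 10469 in ID. The D libraries were the lowest there (48.4% of all genes did not overlap with U), and no comparison of the CTCF line passed the test for Mki67. The CTCFL counts were 9737, 9337 and 11556 in CTCFL U, 12585, 12314 and 11473 in I, 11765, 12246 and 13772 in D, and 11801 and 13334 in ID. In this line the D and ID libraries lay above all untreated ones (46.7% and 72% of all genes did not overlap with U). Mki67 rose by 0.31 with Dox and 0.30 with both.

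Cdkn2b, which encodes an inhibitor of the cyclin D kinases, rose with IAA in 3 lines and with IAA and Dox together in all 4. Its normalised counts were 41.5 and 38.7 in CTCF U, 75.5, 96.6 and 89.7 in I, 71.6, 56.3 and 68.4 in D, and 129, 122 and 151 in ID. They were 70.0, 62.3 and 95.2 in CTCFL U, 159, 103 and 125 in I, 222, 200 and 161 in D, and 259 and 287 in ID. In both lines the untreated libraries were the lowest and the ID libraries the highest, without overlap. Between ID and U, 71.6% and 72% of all genes did not overlap in these lines. The counts were 41 and 48.2 in LCL U, 131 and 98.7 in I, 62.6 and 68.6 in D, and 374 and 395 in ID. They were 70.1 and 49.8 in CLC U, 286 and 438 in I, 38.8 and 67.3 in D, and 205 and 195 in ID. The LCL line shared the order of the CTCF line, while in the CLC line D overlapped U and the I libraries were the highest. Of all genes, 72.6% did not overlap between LCL ID and U, and 74.4% between CLC I and U. With IAA the log2 fold change was 2.56 (SE 0.31, adjusted p = 0.000324) in the CLC, 1.34 (SE 0.24, adjusted p = 0.000145) in the LCL and 1.10 (SE 0.19, adjusted p = 0.000435) in the CTCF line. In ID against U it was 3.08 (SE 0.24, adjusted p = 2.72e-09) in the LCL, 1.86 (SE 0.25, adjusted p = 2.07e-06) in the CTCFL, 1.74 (SE 0.31, adjusted p = 0.00377) in the CLC and 1.71 (SE 0.19, adjusted p = 6.45e-06) in the CTCF line. The CLC value in ID ran from 1.5 to 1.98 when 1 library was left out, and its call was lost without either CLC U or either CLC ID library (adjusted p up to 0.0389).

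Of the 4 other CDK inhibitor genes on a list of pathway genes, Cdkn1c, a relative of Cdkn1b, rose with IAA in every line, by 1.49 in the CTCF, 0.86 in the CTCFL, 1.56 in the LCL and 1.70 in the CLC line. In ID against U its log2 fold change in the LCL line was 2.58 (SE 0.15, adjusted p = 5.3e-11). Cdkn1c was named after its values were seen and the rest of those 4 are not described, so it does not stand for CDK inhibitors as a set. Among the 38 other replication genes (origin recognition complex, primase, polymerase subunits, nucleotide synthesis), 19 fell and 1 rose with IAA in the CLC line, with a median of -0.42, where 14.5% of all genes fell and 12.7% rose. In the CTCF, CTCFL and LCL lines, 12, 10 and 9 of them fell and 6, 9 and 4 rose, where 16.1%, 16% and 14.3% of all genes fell and 14.8%, 14.3% and 14.1% rose. Of 35 other mitosis genes, 12 rose and 3 fell in the CTCF line and 2 rose and 6 fell in the CLC line, where 6 of 35 is near the 14.5% of all genes that fell. Of 18 G1/S regulators (E2F factors, RB family, CDK2, CDK4 and CDK6), 5 fell and none rose in the CLC line.

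Dox alone, compared with no treatment, left endogenous CTCF in place and asks what the transgene did beside it. No group given Dox lacked a transgene, so an effect of Dox itself cannot be told apart. In the CTCFL line 8 members rose and 6 fell, where 12.4% of all genes rose and 12.6% fell; with TMM factors 5 rose and 7 fell. The naive sum was 98797 to 101746 in CTCFL D, also below U, and its part was not tested. Cdkn2b rose by 1.36 (SE 0.23, adjusted p = 7.47e-05), and Ccne2 and Ccne1, both E cyclin genes, fell by 0.67 (SE 0.12, adjusted p = 0.000109) and 0.56 (SE 0.07, adjusted p = 1.03e-06). GINS subunit genes moved apart: Gins1 fell by 0.50 (SE 0.11, adjusted p = 0.00073) and Gins2 rose by 0.44 (SE 0.10, adjusted p = 0.0012), the latter with an adjusted p of 0.0109 without replicate 1 of CTCFL U. Rfc2 rose by 0.41 (SE 0.08, adjusted p = 0.000363).

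In the other lines fewer members were called with Dox alone. In the LCL line 4 fell and none rose (6.2% and 5.15% of all genes): Mki67, Ccnd1 by 0.58 (SE 0.12, adjusted p = 0.00116), Rfc1 by 0.57 (SE 0.09, adjusted p = 0.000205) and Pole by 0.53 (SE 0.10, adjusted p = 0.000694). Without replicate 1 of LCL U, or replicate 1 of LCL D, 2 were called; Ccnd1 and Pole lost their calls in both, and Ccnd1 also without replicate 2 of LCL D (adjusted p = 0.0167). In the CLC line Ccne1 fell by 0.63 (SE 0.08, adjusted p = 0.00646) and Ccna2, the S and G2 phase cyclin gene, by 0.60 (SE 0.07, adjusted p = 0.00521), where 0.887% of all genes fell and 0.73% rose. Leaving out a CLC I library gave 7 called members there. Leaving out either U, either D or replicate 1 of ID gave 0, and replicate 2 of ID gave 1. In the libraries labelled CTCF D, 1 member fell (3.23% of all genes, with 1.47% higher), and it was Ccne2 (log2 fold change -0.79, SE 0.10, adjusted p = 0.000907). Without either CTCF U library none was called, without replicate 1 of CTCF I 7 were, and without replicate 2 of CTCF D 2 were.

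IAA and Dox together, compared with no treatment, were given to replace endogenous CTCF with the transgene product. In the CTCF line, whose Ctcf RNA did not show Dox, ID is a group by label. In the CTCFL line 14 members rose and 6 fell (22.2% and 23.1% of all genes), with a median log2 fold change of 0.19 against 0.08 for all genes, and without replicate 2 of CTCFL ID 13 were called. Besides Cdkn2b, Rfc2 rose by 0.85 (SE 0.09, adjusted p = 4.68e-08), Gins2 by 0.61 (SE 0.11, adjusted p = 5.42e-05) and Mcm2 by 0.58 (SE 0.06, adjusted p = 1.07e-07). Gins1 fell by 0.97 (SE 0.12, adjusted p = 4.1e-07) and Ccnd3 by 0.60 (SE 0.08, adjusted p = 2.48e-06). Ccnd3 has 8775 bases of exon, and its value was -0.23 (adjusted p = 0.0276) with the length trend removed, where the 10% of genes with the longest exons had a median of -0.63. In CTCFL ID the summed naive pluripotency markers were 71260 to 73060, against 131099 to 139189 in U, and the sum of 5 fibroblast markers, 4 of them at a mean of at least 10, was 3076 to 3172 against 1240 to 1471. The naive sum was also lower in CTCF ID, at 94741 to 96728 against 151031 to 152750, and the part of these markers was not tested. In the libraries labelled CTCF ID 6 rose and 3 fell (18.9% and 21.2% of all genes), among them Aurkb, the kinase of the chromosomal passenger complex, by 0.59 (SE 0.06, adjusted p = 4.72e-06), Ccnd2 by 0.63 (SE 0.11, adjusted p = 0.000458) and Rfc2 by 0.55 (SE 0.08, adjusted p = 4.26e-05). Rfc1 fell there by 0.42 (SE 0.09, adjusted p = 0.00182), with -0.39 (adjusted p = 0.0207) without replicate 2 of CTCF U. Without replicate 2 of CTCF U, 5 members were called.

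In the chimera lines ID was compared with U within each line, and the lines were not tested against each other in this comparison. In LCL ID 8 members rose and 9 fell against U (18.5% and 19.4% of all genes; 5 and 9 with TMM factors), and 10 were called without replicate 1 of LCL U. Rfc1 fell by 0.84 (SE 0.09, adjusted p = 3.44e-07), Pole by 0.55 (SE 0.10, adjusted p = 1e-04), Mcm6 by 0.54 (SE 0.09, adjusted p = 5.17e-05) and Mcm3 by 0.49 (SE 0.09, adjusted p = 0.000112). The genes with the 10% longest exons had a median of -0.51 in that comparison, and with the length trend removed Pole was at -0.10 (adjusted p = 0.34). In CLC ID 9 members fell and 2 rose against U (7.90% and 8.81% of all genes; 5 and 2 with TMM factors), with Cdc6 at -0.61 (SE 0.10, adjusted p = 0.00265) and Mcm10 at -0.80 (SE 0.08, adjusted p = 0.000264). That count was 3 and 2 without replicate 1 or 2 of CLC U, 21 without either CLC I library, 6 without either CLC D library, and 4 and 5 without replicate 1 or 2 of CLC ID. Cdc6 lost its call without either CLC U library or replicate 1 of CLC ID (adjusted p up to 0.0364). The naive sum was 213542 to 224872 in CLC ID against 254272 to 255692 in U, and 4 trophectoderm markers summed to 193 to 258 in LCL ID against 35.4 to 41.4 in U; the part of these markers was not tested.

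**Figure D3:**
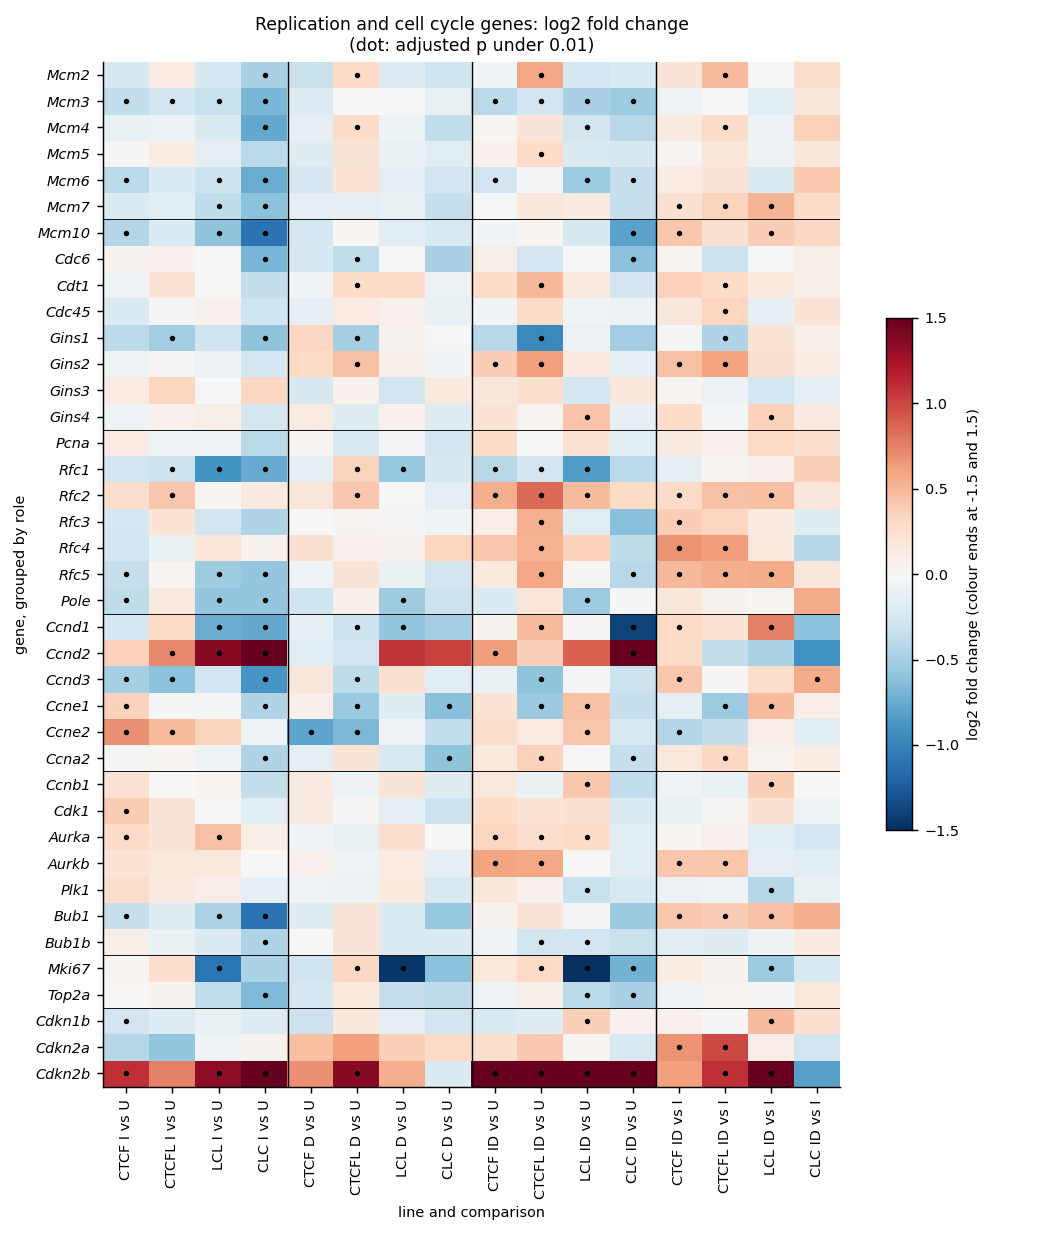
Log2 fold change of the 39 members (y axis, grouped by role) in the 16 comparisons within a line (x axis), with a dot where the adjusted p was under 0.01. The column CLC I vs U is the one with the most lower members (18), and Cdkn2b at the foot is higher in ID vs U of all 4 lines (1.71 to 3.08).

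ID against I asks, within each line, what changed when Dox was added to IAA. It does not test the transgenes against one another. This comparison and I against U share the I libraries, so a low I value raises one and lowers the other. In the libraries labelled CTCF ID 12 members rose and 1 fell against I (10.1% and 15.5% of all genes), in the CTCFL line 14 rose and 2 fell (13.2% and 16.6%), and in the LCL line 11 rose and 2 fell (16.2% and 16.8%), with medians of 0.16, 0.07 and 0.10. In the CLC line 1 rose and none fell (3.68% and 1.81%), with a median of 0.11. The member that rose there was Ccnd3 (log2 fold change 0.56, SE 0.08, adjusted p = 0.00384); without replicate 1 of CLC I 6 were called, and without any single U, D or ID library none. In the CTCF line the count was 8, 5 and 6 without replicate 1, 2 or 3 of ID; in the CTCFL line 9 and 10 without replicate 1 or 2 of ID; and in the LCL line 5 and 8 without replicate 1 or 2 of I.

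In ID against I, 4, 3 and 2 of the 7 clamp, clamp loader and polymerase genes rose in the CTCF, CTCFL and LCL lines. So did 2, 3 and 2 of the 8 licensing and activation genes, and 1, 2 and 2 of the 3 CDK inhibitor genes. Of all genes, 10.1%, 13.2% and 16.2% rose in these lines, and the small role groups were not tested against those shares. Rfc4, a small clamp loader subunit, rose by 0.67 (SE 0.14, adjusted p = 0.00208) in the CTCF and 0.63 (SE 0.10, adjusted p = 4.57e-05) in the CTCFL line; the former had an adjusted p of 0.0117 and 0.0115 without replicate 2 or 3 of CTCF ID. Rfc5, another one, rose in 3 lines, by 0.49 (SE 0.07, adjusted p = 6.44e-05) in the CTCF, 0.54 (SE 0.09, adjusted p = 5.29e-05) in the CTCFL and 0.56 (SE 0.09, adjusted p = 2.72e-05) in the LCL line. Cdkn2a rose by 0.67 (SE 0.16, adjusted p = 0.00455) in the CTCF and 0.99 (SE 0.23, adjusted p = 0.00151) in the CTCFL line; it neighbours Cdkn2b on chromosome 4. The CTCF value was 0.44 (adjusted p = 0.0401) with the length trend removed and lost its call without replicate 1 or 3 of CTCF I or any single CTCF ID library (adjusted p up to 0.0219). The CTCFL value was 0.90 with edgeR (adjusted p = 0.0288) and DESeq2 (adjusted p = 0.0298), and lost its call without replicate 1 or 2 of CTCFL ID (adjusted p = 0.0128 and 0.0234). Cdkn2b itself rose by 1.75 (SE 0.24, adjusted p = 6.36e-06) in the LCL and 1.10 (SE 0.25, adjusted p = 0.00139) in the CTCFL line. On the recovered reads the CTCFL value was 0.85 with edgeR (adjusted p = 0.0441) and DESeq2 (adjusted p = 0.0509). Its call was also lost without replicate 1 or 2 of CTCFL ID (adjusted p = 0.0113 and 0.0252). Gins2 rose by 0.44 (SE 0.08, adjusted p = 0.000674) and 0.59 (SE 0.11, adjusted p = 0.00015) in the CTCF and CTCFL lines. Bub1 rose by 0.40, 0.37 and 0.44 in the CTCF, CTCFL and LCL lines, and Mcm10 by 0.40 and 0.37 in the CTCF and LCL lines. Ccnd1 rose by 0.76 (SE 0.12, adjusted p = 2.14e-05) in the LCL line, where Mki67 was at -0.54 (SE 0.14, adjusted p = 0.00295). That Mki67 value lost its call without replicate 1 or 2 of LCL I (adjusted p = 0.0272 and 0.0183) or replicate 1 of LCL ID (0.0501), with DESeq2 (0.0647), and with the length trend removed, where it was -0.33 (0.041). Ccne1 rose in the LCL line by 0.47 (SE 0.09, adjusted p = 0.000204) and fell in the CTCFL line by 0.54 (SE 0.07, adjusted p = 5.48e-06).

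Interaction terms in a fit over all 4 lines tested whether the log2 fold change of a treatment differed between lines. They compare fold changes and not the levels of a gene in the lines. For IAA alone, under which no transgene was induced, the fold change was lower in the CLC than in the CTCFL line for 20 members. It was higher for 2 (5.12% and 5.37% of all genes). All 6 MCM2-7 genes were among the 20, with differences of -0.68 to -0.42, though their untreated level was higher in the CLC line. In the LCL line the fold change was lower than in the CTCFL line for 7 members and higher for none (3.43% and 5.07% of all genes). Without replicate 1 of LCL U, 4 were called. The CTCF and CTCFL lines differed in 2 members (0.655% of all genes higher and 0.971% lower in the CTCF line), Ccne1 at 0.38 (SE 0.09, adjusted p = 0.00884) and Ccnd1 at -0.53 (SE 0.12, adjusted p = 0.0064). Neither was called without replicate 1 or 2 of CTCF U, 2 or 3 of CTCF I, 1 of CTCFL U, or 1 or 2 of CTCFL I, and 1 was called without replicate 2 or 3 of CTCFL U or replicate 3 of CTCFL I. Contrasts of the LCL or CLC line with the CTCF or CTCFL line cross the split between libraries described above, and the line, the 2i letters in the headers and library preparation cannot be told apart in them.

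With Dox alone, the fold change against U was higher in the CTCFL than in the CTCF line for 6 members. It was lower for 3 (5.84% and 6.01% of all genes), and D of the CTCF line is a group by label. Of the 6, 4 were MCM2-7 genes, led by Mcm2 with a difference of 0.63 (SE 0.09, adjusted p = 1.21e-05). Without replicate 2 of CTCF U, 3 members were called. In the CLC line the fold change was lower than in the CTCF line for Ccne1 and Ccna2 (1.19% of all genes). Only 1 of them was called without replicate 2 of CTCF U, replicate 1 of CTCF D, or any single CLC U or D library. In the LCL line the fold change was higher than in the CTCF line for Ccne2 and lower for Mki67 (2.37% and 1.21% of all genes). Here 1 of them was called without replicate 1 or 2 of CTCF U, any single CTCF D library, or replicate 1 of LCL U or LCL D. For ID against I, the CTCFL and CTCF lines differed in the fold change of 1 member, Ccne1 (-0.39, SE 0.09, adjusted p = 0.00192). Of all genes, 4.28% were lower and 4.07% higher, and no member differed without replicate 1 of CTCFL ID. In the LCL line the fold change was higher than in the CTCF line for 6 members and lower for 3 (12% and 11.5% of all genes). That count was 4 without replicate 2 of CTCF I or of CTCF ID and 3 without replicate 1 of LCL I or of LCL ID. In the CLC line the fold change was higher than in the CTCF line for 1 and lower for 7 (14.3% and 9.78%). Rfc4 was at -1.10 (SE 0.18, adjusted p = 1.73e-05), and 4 and 5 members were called without replicate 2 of CLC I or of CLC ID.

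FLAG ChIP-seq of the same lines gives the places where the transgene products were found, as peaks called in each of 2 replicates and kept here where both held them. A member was counted where such a site lay within 3 kb of any of its annotated start sites, so that some sites lie within the gene body. With Dox alone, 20 members (51.3%, against 38.1% of 17439 genes) had a site of CTCF, 22 (56.4%, against 41.9%) of CTCFL, 19 (48.7%, against 39.2%) of LCL and 7 (17.9%, against 9.5%) of CLC. With both agents the numbers were 15 (38.5%, against 29.9%), 20 (51.3%, against 39.5%), 23 (59.0%, against 50.2%) and 15 (38.5%, against 26.3%). Mcm5, Gins4, Pole, Rfc5 and Ccnd2 had a site in all 8 sets, though that of Rfc5 was not at the same place in each. RAD21, a cohesin subunit, had sites at 0 to 2 members per set, or at most 5.1% of members, against 0.1% to 3.2% of all genes; in CTCF D and LCL D, with 2 members each, 3.2% and 1.5% of all genes had such a site.

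The members with the largest RNA changes did not share a pattern of sites. Cdkn2b had a site in 7 of the 8 sets, all but CLC D, with its middle 325 to 438 bases past the start site and the -log10 q of the stronger replicate between 27.1 in LCL D and 75 in LCL ID. Ccnd2 had a site in all 8 sets, from 15.9 in CLC D to 109.2 in CTCF ID, with the middle at -1537 to -1238 bases from a start site, minus being upstream. Ccnd1 had a site in 7 sets, again all but CLC D. Bub1 had a site in CTCF D alone (28), and Mki67 and Mcm10 had none in any set.

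**Figure D4:**
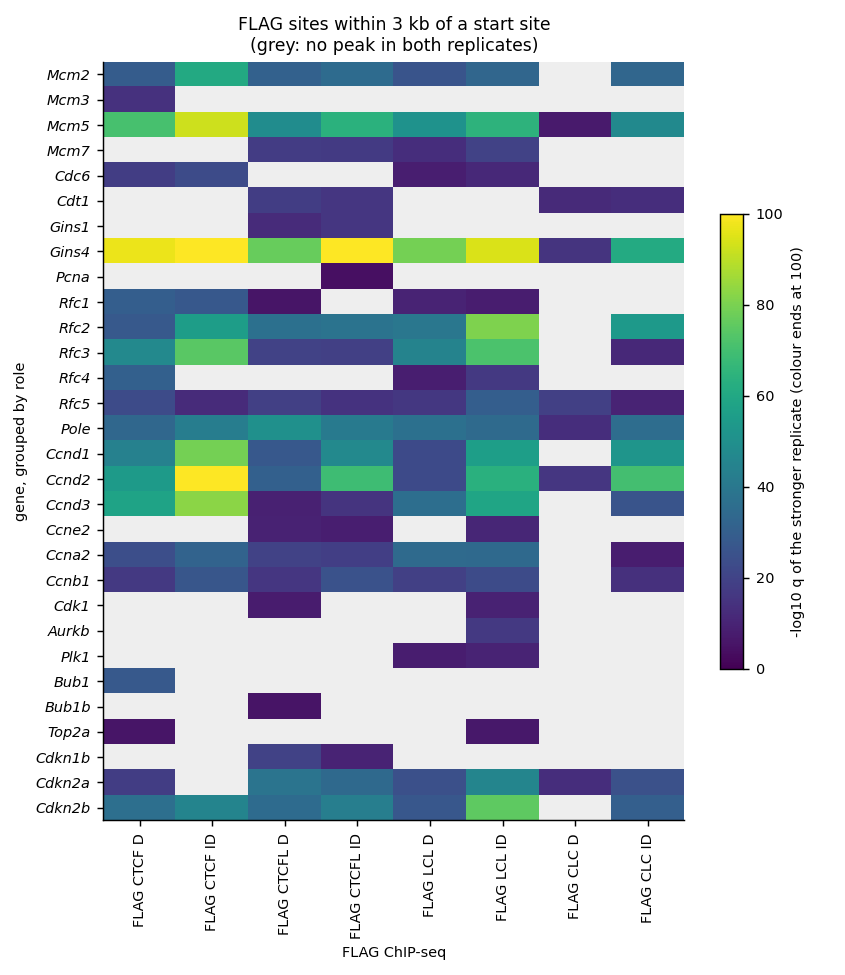
The -log10 q of the stronger replicate (colour, ending at 100) for FLAG sites within 3 kb of a start site of the members (y axis), in the 8 sets of line and condition (x axis); grey means no peak held by both replicates, and members without any site are left out. Gins4 is bright in most columns (15.0 in CLC D to 118.9 in CTCFL ID), and the CLC D column is mostly grey, with 7 members.

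The letters of the CTCF core (CC, AG and GGC, spaced by 3 and then 2 bases of any kind), searched on both strands in the middle 151 bases of the sites, occurred at 12 places in sites of members, and 4 are shown for the genes named above, together with Mcm2. Each run holds the core in capitals with 9 bases on either side, on GRCm38, written 5′ to 3′ on the strand that carries the core.
Cdkn2b, chr4:89310622-89310651, minus strand: caggccttaCCGGCAGAGGGCgcacgagcg
Ccnd2, chr6:127147861-127147890, plus strand: acatgtctgCCACTAGGTGGCagcacagac
Gins4, chr8:23237878-23237907, minus strand: accgattcgCCACAAGACGGCgctgcctgg
Mcm2, chr6:88893748-88893777, minus strand: catataccaCCAGCAGGTGGCgctgtggat
The core at Cdkn2b fell in the windows of 5 sets (CLC ID, CTCF ID, CTCFL D, CTCFL ID and LCL D), as did those at Gins4 and Mcm2 in 5 sets each, and the core at Ccnd2 in 1 set, CLC D. Of all sites in a set, 19.3% (LCL ID) to 42.3% (CTCF ID) held these letters, and of the sites at members, 8 of 15 in CTCF ID and 3 of 23 in LCL ID did. No match says only that the letters are not in that window.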

How the data were processed

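The authors sequenced poly(A) RNA with paired, directional libraries, aligned reads to GRCm38/mm10 with STAR v2.6 and, per the labels, list HTSeq, Trim Galore 0.4.4 and SAMtools 1.3 among their tools. The deposited RNA values are a signal, reads per gene scaled by the authors with a size factor for each library and given to 2 decimals. In 36 of the 38 libraries whole reads were recovered (100.0% of the values up to 500 reads were whole within 0.1); CTCFL I replicate 2 and CTCFL ID replicate 2 entered no test on reads. Each gene with a mean of at least 10 in a line was tested on log2(value + 1) with limma 3.58.1 (R 4.3.3), 1 fit per line with its 4 conditions and a variance trend, and p-values were adjusted by Benjamini-Hochberg over all genes (16705 in the CTCF, 16840 in the CTCFL, 15274 in the LCL and 15337 in the CLC line). Fold changes of low genes are understated by the pseudocount of 1. The 9 interaction terms came from a fit over all lines (16480 genes). edgeR 4.0.16 and DESeq2 1.42.0 were run on the recovered reads; edgeR called 236 (CLC D vs U) to 6503 (CTCF ID vs U) genes per comparison.

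Per the file headers, peaks were called by MACS in each replicate with a fold enrichment and a −log10 q value, which the authors deposited; a ratio of fold enrichment was kept beside the −log10 q and not compared. Start sites came from GENCODE vM21, promoters from RefSeq. ChIP-seq reads had been aligned with Bowtie2 and duplicates removed. Scripts were tested on simulated data.

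Members and gene lists were chosen with earlier results of these data known. Members past an adjusted p of 0.01 and an absolute log2 fold change of 1 in any of 16 comparisons are given in every library, and up to 6 called members with the largest change per comparison with SE and p; genes outside that rule were named after their values were seen. Alternatives were the pseudocount, the filter, TMM factors, other fits, a replicate block, edgeR, DESeq2 and leaving out each library.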

Additional observations from a re-analysis of the deposited data

Results flagged for a closer look

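The effect of a treatment differed between lines for 17 values of the 6 members given in every library, by an interaction term past an adjusted p of 0.01 in limma. All contrasts of the LCL or CLC line with the others cross the split between libraries, which cannot be told apart from the line. For IAA alone, the difference in log2 fold change between the CLC and CTCFL lines was 1.81 for Cdkn2b and 1.70 for Ccnd2. It was -1.05 for Ccnd1, -0.92 for Bub1, -0.91 for Mcm10 and -0.73 for Mki67. Between the LCL and CTCFL lines it was -1.34 for Mki67, -1.02 for Ccnd1 and -0.40 for Mcm10, and between the CTCF and CTCFL lines it was -0.53 for Ccnd1.

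For Dox alone, the log2 fold change of Mki67 differed by -1.15 between the LCL line and the CTCF line, whose D libraries are a group by label. For ID against I, the LCL line differed from the CTCF line by 1.13 for Cdkn2b, 0.46 for Ccnd1 and -0.66 for Mki67, and the CLC line from the CTCF line by -1.44 for Cdkn2b, -1.20 for Ccnd2 and -0.92 for Ccnd1. No group held 4 or more libraries, so none was tested for a single library standing apart.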

How the results depend on the processing

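Of 1651 alternative values for the 80 log2 fold changes named, 1527 kept direction and call, 124 kept direction and lost the call, and 0 reversed. The lack of reversals says little. Leaving out a library of a group not compared, or dropping the variance trend, leaves the fold change as it was. The 80 values were also picked because they were called in the main fit. Counts of called members moved by over 1.5 times as follows, and where no value shows it the cause was not tested. All 4 lines in 1 fit gave 2 for CTCF D vs U, 11 for CTCFL I vs U, 12 for CLC D vs U, 21 for CLC ID vs U and 12 for CLC ID vs I. Only the 2 groups compared gave 5 for CTCF I vs U, 10 for LCL ID vs U, 21, 19 and 0 for CLC D vs U, ID vs U and ID vs I. Without a variance trend the counts were 8 for CTCF I vs U, 6 and 9 for CTCFL D vs U and ID vs I, 4, 0, 3 and 3 for LCL I, D and ID vs U and ID vs I, and 0, 3 and 0 for CLC D vs U, ID vs U and ID vs I. Without a filter they were 11 for LCL ID vs U, 0 for CLC D vs U and 7 for CLC ID vs U, and with a minimum mean of 50, 2 for CLC ID vs I. TMM factors gave 11 for CTCFL I vs U, 7 for CLC ID vs U, 1 for the CTCF minus CTCFL difference in I vs U and 5 for the LCL minus CTCF difference in ID vs I. With the trend over exon length removed, chosen after seeing the data, they were 14 for CTCF ID vs U, 17 for CTCFL I vs U, and 4, 19 and 5 for CLC D vs U, ID vs U and ID vs I. On recovered reads, edgeR gave 12 and 7 for CTCFL ID vs U and ID vs I, and DESeq2 gave 4 for CTCF D vs U, 8 for CTCFL ID vs I, 5 for CLC D vs U and 6 for CLC ID vs I.

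Replicate numbers did not pair the libraries: 3 of 54 correlations of same-numbered deviations were above 0.1, from -0.31 to 0.15. With a replicate block the counts were 0 for CLC D vs U, 6 for CLC ID vs U and 0 for CLC ID vs I, also 0 with only those 2 groups; the crossed pairing of CLC ID vs I gave 12.

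Leaving out 1 library at a time gave 7 to 17 for CTCF I vs U, 0 to 7 for CTCF D vs U, 5 to 13 for CTCF ID vs U and for CTCF ID vs I, 13 to 21 for CTCFL ID vs U, 9 to 17 for CTCFL ID vs I, 8 to 14 for LCL I vs U, 2 to 5 for LCL D vs U, 10 to 14 for LCL ID vs U, 5 to 14 for LCL ID vs I, 8 to 22 for CLC I vs U, 0 to 7 for CLC D vs U, 2 to 21 for CLC ID vs U and 0 to 6 for CLC ID vs I. For the differences between lines it gave, in I vs U, 0 to 3 for CTCF minus CTCFL and 4 to 7 for LCL minus CTCFL; in D vs U, 3 to 9 for CTCFL, 1 to 2 for LCL and 1 to 2 for CLC minus CTCF; and in ID vs I, 0 to 1, 3 to 7 and 4 to 12. Within 1 kb of a start site, CTCF D had sites at 12 members. RAD21 counts from 1 replicate ran 2 to 10 in CTCF D, 1 to 3 in CTCF ID, 0 to 7 in CTCFL D, 0 to 1 in CTCFL ID, 2 to 12 in LCL D, 0 to 2 in LCL ID and 0 to 15 in CLC D. At a -log10 q of at least 5, RAD21 counts in CTCF D, CTCF ID and LCL D were 0, and within 1 kb that of LCL D was 1. With 2 or 3 libraries per group, a member that missed the threshold is not shown to be equal between groups.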
